A study of Mus musculus with 12 samples.

Results

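Retinas of wildtype C57BL/6 mice aged 8 to 12 weeks were compared 3 days after laser injury, with 3 libraries from lasered right eyes and 3 from left eyes that were not lasered. These are 6 of the 12 libraries of the series. The comparison took every gene of the day 3 table whose mean deposited signal over these 6 libraries was at least 1, which left 16786 of 54367 genes. Each right eye received burns of 75 µm and 0.1 s from a 532 nm laser at 4 clock positions. The left eyes came from the same lasered animals, and all mice had been anaesthetised with chloral hydrate and had their pupils dilated, so both groups share the anaesthesia and any effect of the burn that reaches the fellow eye. The labels name retina as the tissue and describe no dissection of the burned spots. Nothing in them ties equal replicate numbers to 1 mouse or says how many retinas went into a library, so p-values measure only the spread between these samples. The series is titled for angiogenesis of the retina in an inflammatory stage, and the day 3 question was which genes differed between the lasered and the control retina.

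A laser burn destroys photoreceptors and the pigment epithelium under them. Müller glia, the radial glia that span the retina, are known to react to such injury by raising the intermediate filament Gfap. Injured photoreceptors are known to signal to them through endothelin 2. The cytokine Lif is known to take part in this response, with Stat3 as the transcription factor downstream of it. Microglia, the resident phagocytes, move to the injury and are joined by monocytes from the blood.

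Between 9282005 and 12515802 reads per library fell in genes, so that 3 reads in a gene with 1000 bases of exons corresponded to a signal of 0.446 to 0.605. The retinal markers Sag, Prph2, Glul, Rlbp1, Gad1 and Rbpms were read in all 6 libraries, the lowest being Rbpms, a ganglion cell marker, at 1.64 to 2.64. Lasered library 1 stood apart. There, 634 genes were more than 2 log2 units above the control mean and 145 were more than 2 below it, against 104 and 10 in lasered library 2 and 120 and 21 in lasered library 3. Of all genes tested, 51% lay above every control in lasered library 1 and 23% below every control. For named genes the value in each lasered library is therefore given, and for gene lists the median over all libraries is followed by the median without lasered library 1, which was 0.14 over all genes tested.

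Changes on day 3 that passed the test were nearly all rises, and they include genes of reactive glia (Gfap), microglia (Fcrls) and complement (C1qb, C4b). Of 16786 genes, 24 rose (0.143%) and 1 fell (0.00596%) at an adjusted p under 0.05 by limma on log2(signal + 1). The 12 protein-coding genes were Ccl12, Edn2, Olfm2, Ly86, C4b, C1qb, Gm10800, Pros1, Cela1, Fcrls, Crym and Gfap. No library of either group overlapped the other group in any of the 25 genes. Without lasered library 1, all 25 still passed, among 301 rises (1.79%) and 14 falls (0.0834%). Without lasered library 2, 16 of the 25 still passed. Without lasered library 3, 0 of the 25 passed, and the 1 gene that did was the lens crystallin gene Crybb3. Without any 1 of the controls 0 genes passed, with a smallest adjusted p of 0.135 to 0.167. Before adjustment, p was under 0.05 in 20.7% of genes on the higher side and 2.29% on the lower side.

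**Figure D1:**
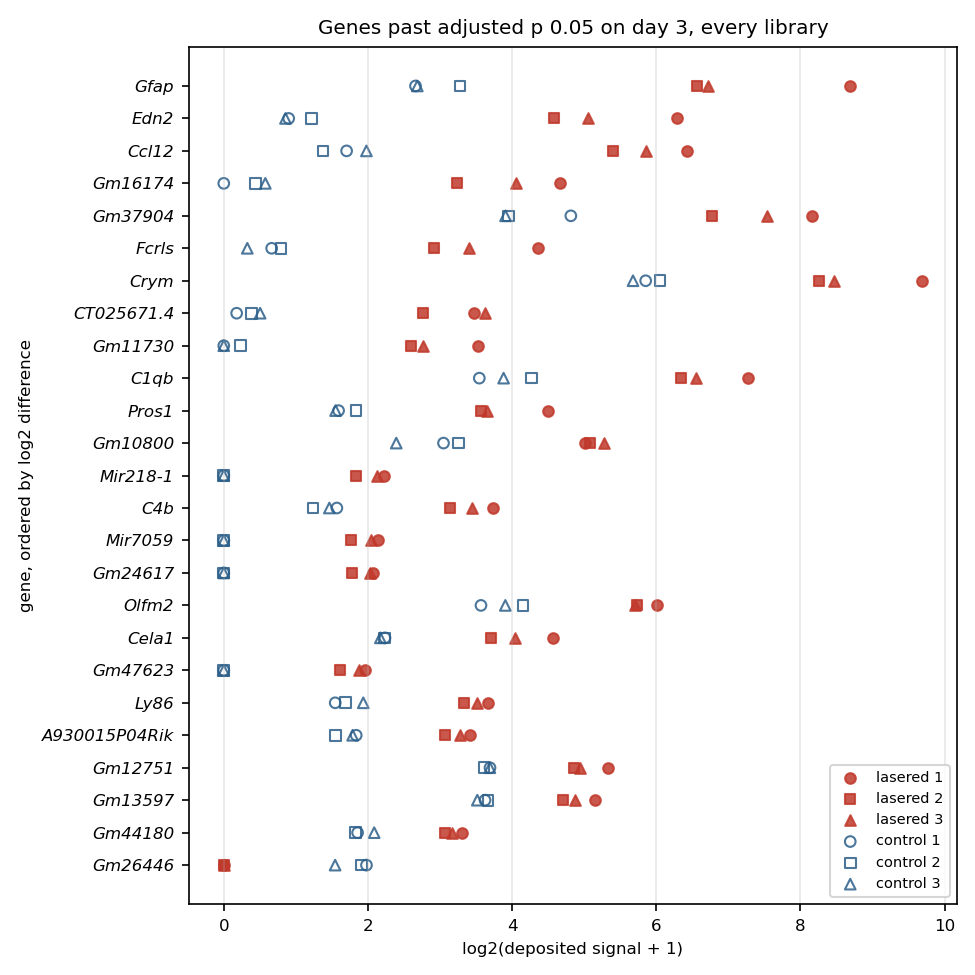
Signal of the 25 genes past the threshold in every library. The x axis is log2(deposited signal + 1), genes on the y axis are ordered by their log2 difference, filled red symbols are lasered and open blue symbols are control libraries, with the symbol shape giving the replicate. In each gene the red and blue symbols do not overlap, and lasered library 1 is the farthest right for Gfap, Edn2, Crym and C1qb.

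More genes had all lasered libraries above all controls (27.7% of those tested) than below them (3.82%). This split depended on the scaling. It was 15.9% against 14.1% once the libraries were rescaled by the median of ratios, and 13.3% against 17.3% after quantile normalization. The median difference over all genes was 0.16 in the deposited values, -0.01 with that rescaling and -0.07 on quantile-normalized values, so the counts and medians of gene groups below are read against 27.7%, 3.82% and 0.16.

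Among the signals that reach glia and leukocytes, Ccl12 had the smallest p. Ccl12 (ENSMUSG00000035352, chr11:82101845-82103400 on mm10) encodes a chemokine that attracts monocytes through the receptor Ccr2. Its signal was 85.1, 41.4 and 57.0 in the lasered libraries and 2.26, 1.59 and 2.94 in the controls. The lowest lasered library was thus far above the highest control. The means of 61.2 ± 22.1 and 2.26 ± 0.67 (SD, n = 3 each) differ 27.0-fold. The log2 difference was 4.21 ± 0.28 (SE), with an adjusted p of 0.0188 (limma). Ccl12 lies close to Ccl2, a related chemokine on the same chromosome with a similar sequence, and the counting of reads shared by them is not given in the sources. Ccl2 itself was at 181, 6.499 and 11.5 in lasered and 0, 0 and 0.173 in control retinas, and passed without lasered library 1 (adjusted p 0.00513) but not with it (0.0938).

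Edn2 (ENSMUSG00000028635, chr4:120161206-120167360) encodes endothelin 2, a peptide ligand of the endothelin receptors. Its signal was 77.2, 23.0 and 32.1 in lasered and 0.867, 1.33 and 0.810 in control libraries. All lasered libraries were clear of the controls, with lasered library 1 the highest. The log2 difference was 4.31 ± 0.41 (adjusted p 0.0278), and 3.82 without lasered library 1. Ednrb, the endothelin receptor of Müller glia and astrocytes, was at 45.9, 3.73 and 3.69 against 3.45, 3.01 and 2.73, with only lasered library 1 far from the controls (adjusted p 0.377).

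Gfap (ENSMUSG00000020932, chr11:102887336-102900912), a filament protein of astrocytes and of Müller glia after injury, had 412, 93.8 and 104 in lasered retinas and 5.32, 8.68 and 5.43 in controls. Lasered libraries 2 and 3 lay close together and lasered library 1 well above them. The log2 difference was 4.45 ± 0.54 (adjusted p 0.0450), and 3.77 ± 0.22 without lasered library 1. Gm26668, which overlaps Gfap on the opposite strand, was at most 1.37 in any library. Of the 15 tested genes of a list of pan-reactive glia, which includes Gfap and Edn2, these 2 rose and 0 fell, 13 had all lasered libraries above all controls, and the median log2 difference was 1.88, and 1.04 without lasered library 1. Without lasered library 1, 7 passed, the others being A2m, Serpina3n, S100a6, S100a11 and S1pr3. Serpina3n, a secreted serine protease inhibitor, had 1147, 67.7 and 124 in lasered against 4.99, 7.91 and 4.59 in control libraries, and its adjusted p was 0.0883 with lasered library 1 and 0.00535 without it. S100a6, a calcium-binding protein, was at 773, 104 and 112 against 13.2, 12.8 and 20.1, again with no overlap.

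Crym and Olfm2 rose from levels that were already clear in control retina. Crym (ENSMUSG00000030905, chr7:120186380-120202111) encodes mu-crystallin, which binds thyroid hormone in the cytosol. It had 824, 306 and 353 in lasered and 56.8, 65.3 and 50.2 in control retinas, a rise of 8.60-fold in the means and of 2.94 ± 0.36 on the log2 scale (adjusted p 0.0450). Olfm2 (ENSMUSG00000032172, chr9:20667690-20746349), a secreted olfactomedin protein, had 63.6, 52.1 and 51.1 against 10.9, 16.8 and 14.0. Its lasered libraries were among the closest to each other, and the means of 55.6 ± 6.89 and 13.9 ± 2.97 (SD, n = 3 each) differ 4.01-fold (log2 difference 1.94 ± 0.19, adjusted p 0.0278).

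Phagocyte and complement genes made up most of the remaining protein-coding rises. C1qb (ENSMUSG00000036905, chr4:136880129-136886187), a chain of the C1q complex that opens the classical complement pathway, had 154, 80.3 and 92.6 in lasered and 10.7, 18.3 and 13.7 in control libraries (log2 difference 2.82 ± 0.29, adjusted p 0.0278). C4b (ENSMUSG00000073418, chr17:34728380-34743882), the complement component cleaved next in that pathway, had 12.3, 7.79 and 9.85 against 1.97, 1.36 and 1.76 (2.01 ± 0.20, adjusted p 0.0278). Its near-identical copy C4a makes the split of reads between them uncertain. Both genes were several times higher in each lasered library than in any control.

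Ly86 (ENSMUSG00000021423, chr13:37345208-37419036) encodes MD-1, the partner of the Toll-like protein Cd180. It had 11.7, 9.04 and 10.4 against 1.92, 2.23 and 2.83, with the lasered libraries within a narrow range (log2 difference 1.78 ± 0.17, adjusted p 0.0278). Fcrls (ENSMUSG00000015852, chr3:87250758-87263738), an Fc receptor-like gene known as a mouse microglia marker, had 19.5, 6.55 and 9.61 against 0.585, 0.733 and 0.254 (2.97 ± 0.36, adjusted p 0.0450). Pros1 (ENSMUSG00000022912, chr16:62854307-62929346), which encodes protein S, a bridge between dying cells and the receptors Mertk, Axl and Tyro3, had 21.6, 10.9 and 11.6 against 2.02, 2.56 and 1.93 (2.25 ± 0.26, adjusted p 0.0447). Cela1 (ENSMUSG00000023031, chr15:100674421-100687921), an elastase-family serine protease, had 22.6, 12.1 and 15.4 against 3.71, 3.70 and 3.51 (1.89 ± 0.22, adjusted p 0.0447). In these genes too lasered library 1 was the highest, and lasered libraries 2 and 3 were above every control. The summed signal of 22 leukocyte surface genes was also above every control, at 681, 99.4 and 141 in lasered and 35.6 to 39.9 in control libraries. This sum differed more between the lasered libraries than these genes did, and its part in the result was not tested.

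The other 13 genes past the threshold were not protein-coding in the annotation, and several rest on few reads. Mir218-1, inside Slit2, had 2 reads in each lasered library, Gm24617 had 2, Mir7059, inside Cln3, had 1 and Gm47623, inside Slc35f1, had 3, and all of them had 0 in each control. The fall of Gm26446, a small nuclear RNA gene inside Ppp1r7, rests on 0 reads in each lasered and 2, 2 and 1 in the control libraries. The fitted differences of these genes depend on the 1 added before the logarithm. For Mir218-1, Mir7059, Gm47623 and Gm26446, reads of the host gene cannot be told apart from theirs. The other calls had at least 20 reads in their highest library. Gm37904, Gm12751, Gm13597 and Gm44180 are processed pseudogenes, which can take reads from their parent genes, and Gm37904 was the highest of them at 284, 108 and 184 against 27.2, 14.4 and 14.0. Gm16174 overlaps Bcl3 on the opposite strand, and A930015P04Rik overlaps Agtpbp1 in the same way. Gm16174 had 24.4, 8.46 and 15.7 against 0, 0.355 and 0.491, while Bcl3 had 21.3, 4.37 and 4.57 against 0, 0.115 and 0.0798. Both genes of that pair were therefore higher in all lasered libraries, and, with the strand setting of the counting not known, they cannot be told apart. The last of these 13 were the antisense gene Gm11730 and the long intergenic CT025671.4, the latter at 10.1, 5.78 and 11.3 against 0.132, 0.306 and 0.419. The predicted gene Gm10800, counted above as protein-coding, was at 31.2, 33.0 and 37.9 against 7.28, 8.56 and 4.25. Just outside the threshold, Gadd45b, a stress-response gene, had 26.5, 9.46 and 10.5 against 0.970, 1.17 and 0.501 (3.01 ± 0.38, adjusted p 0.0503).

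Interferon-stimulated genes formed the list with the largest median, although 0 of 27 tested members passed the test over all 6 libraries (smallest adjusted p 0.0883). These genes are known to be switched on after type I interferon by a factor that contains Stat2 and Irf9. All 27 had every lasered library above every control, and the median log2 difference was 3.00, with 4.80, 1.82 and 2.04 in lasered libraries 1, 2 and 3, and 1.97 without lasered library 1. Without lasered library 1, 23 of 27 rose and 0 fell. Ifit1, which binds foreign RNA, had 490.4, 53.7 and 55.0 in lasered and 6.27, 4.15 and 4.49 in control retinas (adjusted p 0.00407 without lasered library 1). Bst2, the membrane tether that holds back budding viruses, had 512, 55.7 and 71.6 against 4.27, 6.88 and 4.41. Irf9, the DNA-binding part of the factor, had 169, 28.7 and 39.5 against 4.58, 4.04 and 3.47, and Usp18, a brake on interferon receptor signalling, had 233, 38.0 and 38.6 against 6.08, 3.33 and 3.32. In each of these genes lasered libraries 2 and 3 were close together and several times above the controls, and lasered library 1 was several times higher again. Rtp4, an interferon-induced gene outside the list, had 289, 24.7 and 34.4 against 1.79, 2.53 and 1.30. The summed leukocyte surface signal given above was likewise higher in every lasered library than in any control, and its part was not tested.

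The promoters of 22 of the 27 interferon-stimulated genes were found by symbol in RefSeq (GRCm38.p6, 250 bases before to 50 after the start), and 15 of them (68.2%) held the core of the interferon response element, GAAA followed by any 2 bases and GAAA, on either strand, against 3.37% of all 20493 promoters. The core of the site bound by Stat dimers, TTCNNNGAA, was in 8 of the 22 (36.4%) against 8.03% of all. For the reactive glia list, 1 of 12 promoters held the first and 2 of 12 the second. For the IL-6 family and Stat3 list, 0 of 18 held the first and 3 of 18 the second. For phototransduction genes, 0 of 16 held the first and 0 of 16 the second. Ccl12 and Edn2, which passed the test, held 0 matches to either core in the 250 bases before the start. The 250 bases before the start are shown for 3 genes with large differences, because each holds the first core more than once. Capitals mark those matches, which overlap in Bst2, and the sequence reads 5′ to 3′ on the strand of the gene.
Ifit1, chr19:34640639-34640888, plus strand: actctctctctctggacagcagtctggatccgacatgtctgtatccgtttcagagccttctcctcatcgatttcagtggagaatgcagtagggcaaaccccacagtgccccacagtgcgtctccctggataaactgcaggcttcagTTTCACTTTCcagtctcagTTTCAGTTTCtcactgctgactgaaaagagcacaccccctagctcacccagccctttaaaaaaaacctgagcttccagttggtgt
Ifit3, chr19:34583279-34583528, plus strand: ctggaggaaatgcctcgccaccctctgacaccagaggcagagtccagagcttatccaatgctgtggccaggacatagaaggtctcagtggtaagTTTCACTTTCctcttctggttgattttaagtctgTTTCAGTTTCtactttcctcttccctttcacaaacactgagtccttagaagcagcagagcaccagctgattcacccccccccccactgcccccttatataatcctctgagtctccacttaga
Bst2, chr8:71537473-71537722, minus strand: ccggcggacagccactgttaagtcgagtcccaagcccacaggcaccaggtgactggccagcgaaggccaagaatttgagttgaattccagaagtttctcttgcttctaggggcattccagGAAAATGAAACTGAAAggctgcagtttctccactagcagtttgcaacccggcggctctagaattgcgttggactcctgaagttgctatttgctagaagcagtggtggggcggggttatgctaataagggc
In Gfap, whose RefSeq start lies 3712 bases inside the gene of the table, the 300 bases held 1 match to TTCNNNGAA, in capitals in the 30 bases around it, from base -2 to 6 relative to the start.
Gfap, chr11:102897183-102897212, minus strand: atgggggtgcTTCCAGGAAgtcaggggcag
A match is a description of the sequence and not a measured binding site. The interferon list was written from textbook knowledge of such genes, so its share of matches describes the list and not the day 3 retina.

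The IL-6 family and Stat3 pathway is known to couple injury to gliosis. Its list had 20 tested members, of which 0 passed over all libraries and 10 lay above all controls (median 0.99, and 0.52 without lasered library 1). Stat3 was at 25.1, 9.52 and 9.71 in lasered and 2.88, 2.86 and 2.84 in control retinas. The controls were nearly equal and each lasered library was more than 3 times as high, yet the spread among the lasered libraries left the adjusted p at 0.0883. Without lasered library 1, Bcl3, Stat3, Osmr, Timp1 and Socs3 passed. Bcl3 and Timp1 are in this list without being components of the pathway. Osmr, the oncostatin M receptor chain, had 14.8, 4.77 and 5.46 against 1.27, 1.06 and 1.28. Socs3, the feedback inhibitor of the pathway, had 29.7, 3.50 and 2.99 against 0.302, 0.463 and 0.624. The ligands were low. Lif had 66, 10 and 9 reads in lasered and 1, 3 and 0 in control libraries and was under the limit for testing, and Il6 had 77, 0 and 1 reads against none, so that its signal came from lasered library 1.

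Of 14 tested genes of the TNF, IL-1 and NF-kB list, 11 lay above and 1 below all controls (median 0.98, and 0.49 without lasered library 1), 0 passed over all libraries and 3 passed without lasered library 1. Tnfrsf1a, the main TNF receptor, had 37.7, 13.4 and 16.1 against 3.18, 3.70 and 2.97. Nfkbia, the inhibitor that NF-kB itself induces, had 71.3, 30.03 and 28.3 against 12.9, 12.8 and 12.8, again with very even controls. Tnfaip3, which encodes the NF-kB inhibitor A20, lay on the other side, at 4.74, 24.7 and 14.9 against 37.6, 25.9 and 33.2 (adjusted p 0.183).

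Phagocyte genes were higher in all lasered libraries for most members. Among pattern recognition receptors, 15 of 16 lay above all controls (median 1.77, and 0.87 without lasered library 1), Ly86 rose, and 5 passed without lasered library 1. Fcer1g, the shared signalling chain of Fc receptors, had 217, 37.5 and 50.6 against 12.1, 10.4 and 11.05, and Clec7a, the receptor for fungal glucans, had 9.93, 3.48 and 4.32 against 0.481, 0.738 and 0.973. In the list of lysosome and lipid handling genes, 18 of 22 lay above all controls (median 1.03, and 0.84 without lasered library 1), 0 passed, and 8 passed without lasered library 1. Ctsh, a lysosomal cysteine protease, had 50.9, 29.0 and 46.4 against 8.80, 14.4 and 10.5, and Apoe, the lipid carrier, had 321, 345 and 275 against 115, 172 and 135. In Ctsh and Apoe lasered library 1 was not far from lasered libraries 2 and 3. Lyz2, the lysozyme of myeloid cells, showed the opposite picture with 661, 30.7 and 64.1 against 3.86, 6.25 and 5.29 (adjusted p 0.0950).

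For the phagocyte oxidase and actin regulators, 7 of 8 lay above all controls (median 1.46, and 0.90 without lasered library 1), 0 passed, and Rac2, Coro1a and Cyba passed without lasered library 1. Rac2, the GTPase that activates the oxidase, had 23.3, 3.87 and 5.52 against 0.788, 0.814 and 0.671. Hcls1 was the member below all controls, at 16.1, 31.8 and 27.0 against 38.3, 39.5 and 47.9. All 15 tested leukocyte surface genes lay above all controls (median 1.26, and 1.05 without lasered library 1), with medians of 3.22, 0.94 and 0.93 in lasered libraries 1, 2 and 3, and 6 passed without lasered library 1. Csf1r, the receptor that microglia need to survive, had 6.96, 5.54 and 4.52 against 1.43, 2.19 and 2.15, and Tyrobp, an adaptor of microglial receptors, had 315, 46.1 and 69.5 against 21.7, 17.0 and 21.8. Ptprc, the pan-leukocyte marker, was under the limit for testing, with 178, 24 and 20 reads in lasered libraries.

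Lymphocyte markers were near the floor. Of 16 listed genes only Lck could be tested, at 4.60, 1.95 and 2.03 against 1.55, 1.46 and 1.15 (adjusted p 0.232). Cd3e had 11, 0 and 0 reads in lasered and 2, 0 and 0 in control libraries. All 16 genes had at least 1 read in lasered library 1, against 8 to 12 of them in each other library. The summed signal of the list was 21.3 in lasered library 1, 4.78 and 3.86 in the other lasered libraries and 3.26 to 3.54 in controls.

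**Figure D2:**
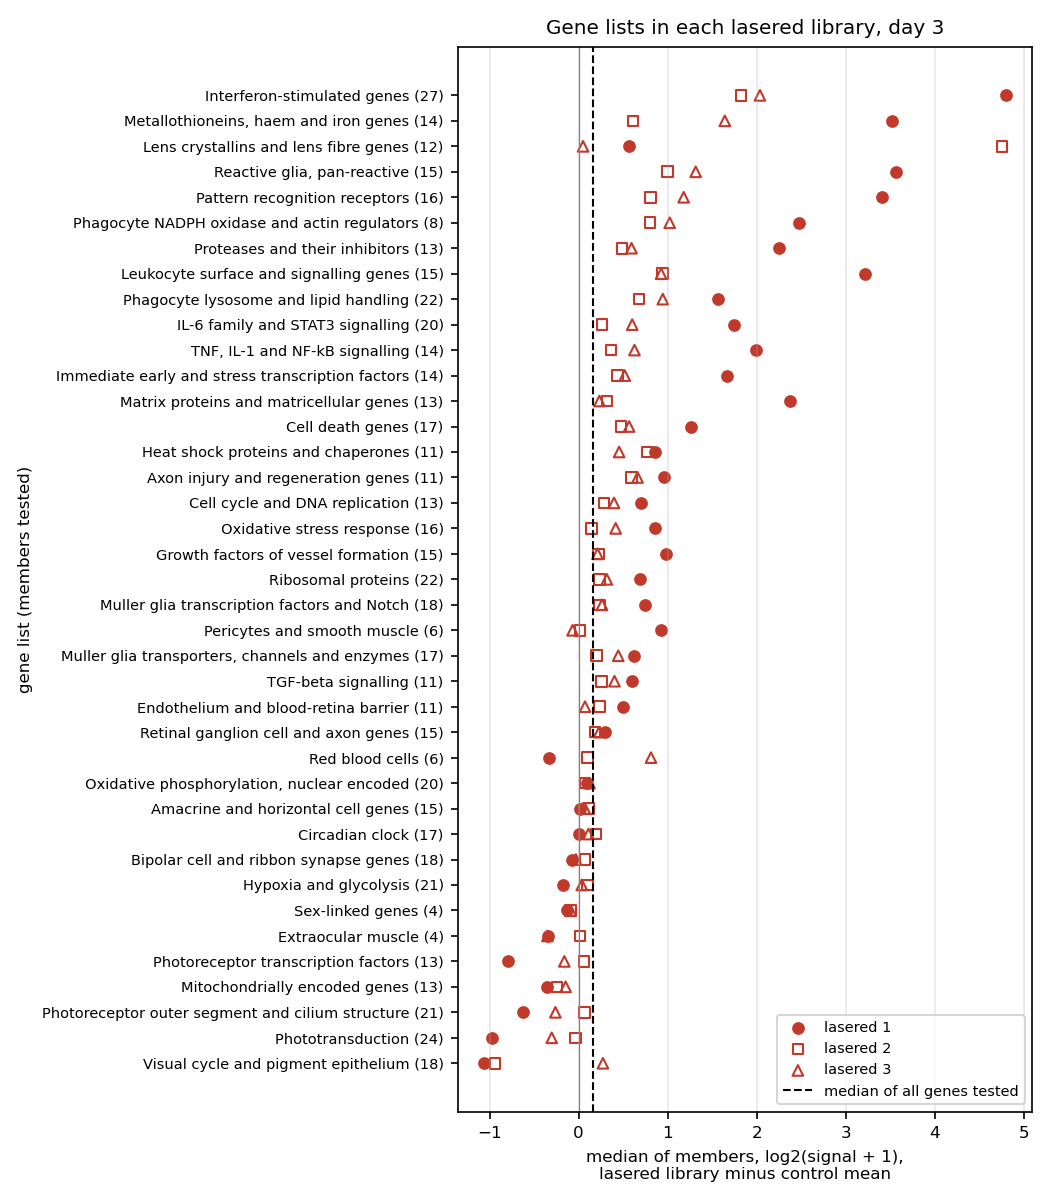
Median log2(signal + 1) difference of each gene list, lasered library minus control mean, for the lists with at least 4 tested members. Each row is a list with its number of tested members, the filled circle is lasered library 1, open squares and triangles are lasered libraries 2 and 3, and the dashed line is the median of all genes (0.16). Interferon-stimulated genes have the highest median in lasered libraries 1 and 3 (4.80 and 2.04), and lasered library 1 is far to the right of the others in the immune lists. The lens list has its highest median in lasered library 2, at 4.76 against 0.56 and 0.05 in lasered libraries 1 and 3.

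Metallothioneins and the genes of haem and iron had a median of 1.90 (1.00 without lasered library 1) over 14 tested members, of which 10 lay above all controls, 0 passed and 6 passed without lasered library 1. Hmox1, which breaks down haem, had 283, 46.7 and 35.4 against 7.56, 8.07 and 8.02. The controls of Hmox1 were almost equal, and every lasered library was at least 4 times as high. Steap4, a metalloreductase, had 132, 6.14 and 15.9 against 0.388, 0.895 and 0.300, and Trf, transferrin, had 47.7, 20.2 and 45.1 against 13.4, 14.3 and 11.3. Mt2, a metal-binding stress protein, had 165, 14.8 and 25.5 against 4.16, 3.54 and 4.83. The summed signal of 8 red blood cell genes was 1380.3, 1853 and 3189 in lasered and 421, 2523 and 5535 in control libraries, and its part in the result was not tested. Hbb-bs, the adult beta globin, had 370.3, 527 and 824 against 100.03, 667 and 1385 (adjusted p 0.888).

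Stress and chaperone genes were higher by less. Of 11 heat shock genes, 8 lay above all controls (median 0.64, and 0.60 without lasered library 1), 0 passed, and Dnajb1 and Cryab passed without lasered library 1. Cryab, a small heat shock protein that Müller glia make, had 412, 244 and 232 against 121, 144 and 127. Of 16 oxidative stress genes, 5 lay above all controls (median 0.43, and 0.30 without lasered library 1), close to the share over all genes, and Gpx1, at 211, 105 and 114 against 65.3, 55.6 and 61.9, passed without lasered library 1. Of 14 immediate early genes, 10 lay above all controls (median 0.88, and 0.48 without lasered library 1) and 0 passed in either fit. Fos, the classic early gene, had 53.7, 27.1 and 31.9 against 16.2, 22.0 and 21.7, and Jund had 7.11, 2.43 and 3.11 against 0.733, 0.980 and 1.59.

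Cell death genes had 10 of 17 members above and 1 below all controls (median 0.79, and 0.54 without lasered library 1), and Fas, a death receptor, passed without lasered library 1 with 76.5, 8.70 and 12.1 against 1.60, 1.93 and 2.06. Bcl2l1, which protects from apoptosis, had 31.6, 29.4 and 25.9 against 14.4, 18.6 and 16.2, and Bax, which promotes it, had 63.6, 39.9 and 30.1 against 14.1, 20.9 and 21.1. Genes on both sides of that balance were thus higher in the lasered libraries without passing the test (adjusted p 0.0883 and 0.0977). Of 13 tested cell cycle genes, 7 lay above all controls (median 0.47, and 0.31 without lasered library 1) and 0 passed in either fit. Rrm2, the nucleotide-making subunit used in DNA synthesis, had 4.09, 1.01 and 1.78 against 0.274, 0.0545 and 0.0745. Mki67, the usual proliferation marker, had 18, 4 and 1 reads in lasered and none in control libraries.

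Genes listed for Müller glia lay on both sides. The list of transporters, channels and enzymes also holds Vim, Cd9 and Clu, which are none of these. Of its 17 tested members, 9 lay above and 1 below all controls (median 0.38, and 0.21 without lasered library 1). Over all libraries 0 passed, and Aldh1l1, Cd9, Clu and Vim passed without lasered library 1. Aldh1l1, a folate enzyme used as a glial marker, had 28.0, 23.2 and 22.0 against 6.28, 10.1 and 8.82, the smallest p of the list (adjusted p 0.0687). Vim, an intermediate filament raised together with Gfap, had 157, 49.2 and 44.1 against 6.79, 13.1 and 8.45. Clu, the secreted chaperone clusterin, had 2653, 2102 and 2805.5 against 1043, 1360.1 and 970.5. Glul, the glutamine synthetase that clears glutamate, was the member below all controls, at 67.2, 285 and 238 against 317, 318 and 310.2 (adjusted p 0.308). Lasered library 1 alone was far below in Glul. The transcription factor and Notch list had 7 of 18 members above and 1 below all controls (median 0.40, and 0.24 without lasered library 1), and 0 passed in either fit. Six6, a factor of retinal progenitors and glia, had 11.1, 7.90 and 8.25 against 4.47, 5.83 and 5.86, and the Notch target Hes5 lay below all controls at 0.616, 0.984 and 0.675 against 1.28, 1.53 and 2.50.

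Photoreceptor genes lay on the lower side, but none passed the test, and the medians were near 0 in lasered library 2. Of 24 phototransduction genes, 8 lay below and 1 above all controls, where 3.82% of all genes lay below. The median was -0.41, with -0.97, -0.03 and -0.30 in lasered libraries 1, 2 and 3, and -0.19 without lasered library 1. Sag, the arrestin of rods, was the member above all controls, at 2608, 2752 and 2616 against 2473, 2567 and 2390.0, and its difference of 0.10 turned to -0.11 after median-of-ratios rescaling. In bulk retina, fewer cells of a type and less RNA per cell cannot be told apart.

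The cone genes Opn1sw, Arr3 and Opn1mw were at their lowest in lasered library 1. Opn1sw, the short-wave cone opsin, had 73.3, 644 and 652 against 974, 1070.2 and 986, Arr3, the arrestin of cones, had 27.4, 249 and 269 against 306, 451 and 443, and Opn1mw had 49.9, 357 and 357 against 675, 428 and 576. All lasered libraries lay below all controls in these genes, and the adjusted p was 0.248 to 0.265. Of 21 outer segment and cilium genes, 4 lay below and 2 above all controls (median -0.25, and -0.074 without lasered library 1), and of 13 photoreceptor transcription factors 3 lay below and 4 above (median -0.23, and -0.0028 without lasered library 1), with 0 passing in either fit. Both medians were lowest in lasered library 1, at -0.62 and -0.80. They were 0.06 for each list in lasered library 2, and -0.26 and -0.16 in lasered library 3. Aipl1, a chaperone of the rod phosphodiesterase, went against the rest of its list with 266, 251 and 184 against 123, 148 and 136, as did Impg2, a protein of the matrix between photoreceptors, with 101, 34.8 and 34.4 against 17.2, 12.2 and 19.9. Neurod1, a transcription factor of photoreceptors and amacrine cells, had 689.8, 553 and 652 against 380.3, 437 and 437.

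**Figure D3:**
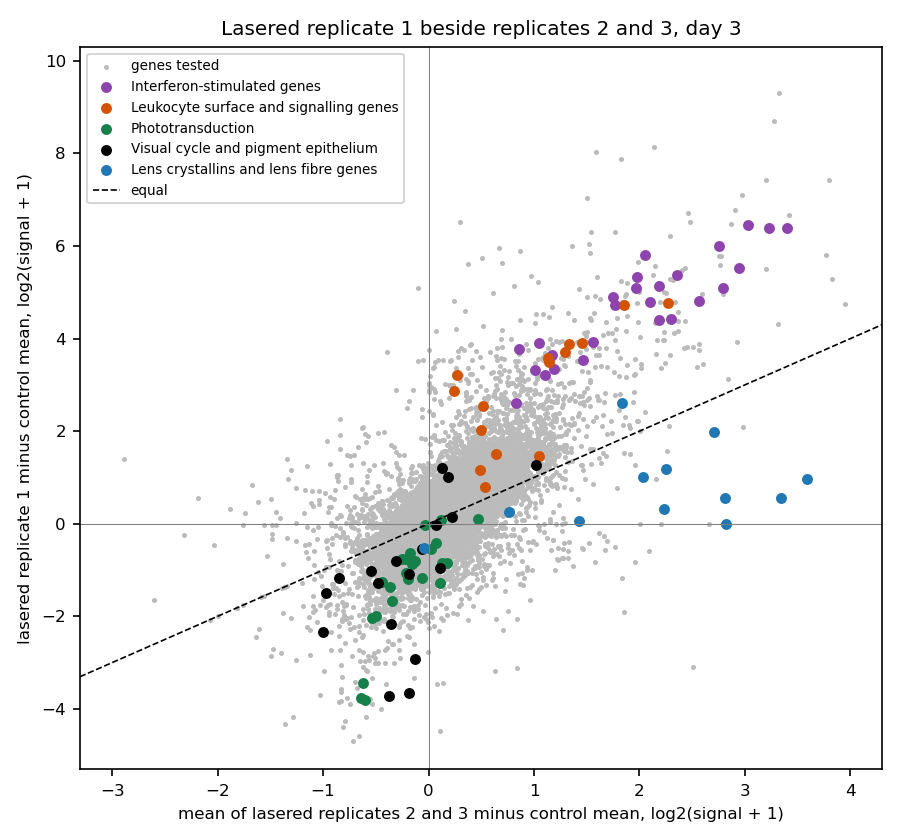
Each gene tested, with the mean of lasered libraries 2 and 3 minus the control mean on the x axis and lasered library 1 minus the control mean on the y axis, both in log2(signal + 1). Both axes share the controls, so their agreement is no measure of reproducibility. Interferon-stimulated and leukocyte surface genes lie above the dashed line of equal differences, the phototransduction genes with the lowest values on the y axis include the cone genes Opn1sw, Arr3 and Opn1mw, and most lens genes lie to the right of it.

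The lists of inner retinal neurons had medians of 0.03 to 0.24, around the 0.16 of all genes. Of 18 bipolar and ribbon synapse genes, 2 lay above and 1 below all controls, and the median of 0.03 turned to -0.19 with median-of-ratios rescaling and -0.20 on quantile-normalized values. Of 15 amacrine and horizontal cell genes, 1 lay above and 2 below, and the median of 0.10 turned to -0.09 and -0.14 in the same way. These medians were 0.037 and 0.056 without lasered library 1. Slc18a2, the vesicle transporter of dopamine, had 6.73, 7.29 and 8.66 against 16.3, 9.23 and 13.2. Of 15 ganglion cell and axon genes, 6 lay above all controls (median 0.24, and 0.24 without lasered library 1). Uchl1, a neuronal deubiquitinase, had 100.2, 87.0 and 87.9 against 45.7, 55.3 and 53.9, and Nefl, the light neurofilament, had 97.3, 127 and 106 against 54.6, 66.8 and 71.3 (adjusted p 0.0883 and 0.0915).

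Axon injury genes were higher, with 7 of 11 above all controls (median 0.62, and 0.66 without lasered library 1), and Gadd45b and Atf3 passed without lasered library 1. Atf3, a transcription factor of injured neurons, had 47.1, 8.85 and 12.9 against 1.28, 2.002 and 2.61. Gap43, a growth cone protein, had 73.5, 76.8 and 84.2 against 46.3, 53.3 and 52.3, with lasered library 1 the lowest of its group. Sprr1a, a protein of regrowing axons, had 10.96, 0.880 and 2.06, and was listed at 0 in every control.

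The matrix list had 6 of 13 members above all controls (median 0.82, and 0.27 without lasered library 1). Over all libraries 0 passed, and Sparc, Cyr61, Spp1 and Emp3 passed without lasered library 1. Emp3 encodes a membrane protein and not a matrix protein. Spp1, osteopontin, had 1169.9, 138 and 163 against 28.8, 26.5 and 32.8, while Sparc, a collagen-binding protein, had 292, 344 and 386 against 127, 193 and 175. Of 13 proteases and inhibitors, 10 lay above all controls (median 1.26, and 0.51 without lasered library 1) and 0 passed in either fit. Plat, the tissue plasminogen activator, had 16.2, 9.75 and 12.7 against 4.59, 6.51 and 5.76. Of 11 genes of TGF-beta signalling, 7 lay above all controls (median 0.37, and 0.28 without lasered library 1), led by the target Id1 with 30.9, 8.73 and 8.72 against 1.88, 3.33 and 3.63 (adjusted p 0.0977).

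Vessel genes, the subject of the title, had medians of 0.29 to 0.43 over all libraries, and of -0.052 to 0.20 without lasered library 1, beside 0.16 and 0.14 for all genes. Of 15 tested growth factors of vessel formation, 6 lay above all controls (median 0.43, and 0.20 without lasered library 1), 0 passed, and Fgf2 and Pgf passed without lasered library 1. Fgf2, basic fibroblast growth factor, had 29.2, 7.16 and 9.60 against 1.87, 1.42 and 2.45. Pgf, the placental growth factor that binds Flt1, had 31.8, 3.18 and 5.33 against 1.01, 1.23 and 1.16. Both were above all controls in every lasered library. Vegfa, the main growth factor of new vessels, had 3.14, 2.31 and 3.14 against 2.25, 2.01 and 2.43, and its groups overlapped (log2 difference 0.25 ± 0.17, adjusted p 0.410). Of 11 endothelial and barrier genes, 4 lay above all controls (median 0.29, and 0.15 without lasered library 1), and Kdr, the receptor of Vegfa, had 15.7, 10.2 and 7.95 against 5.09, 4.89 and 4.96 (adjusted p 0.0940). Of 6 pericyte and smooth muscle genes (median 0.39, and -0.052 without lasered library 1), Rgs5 lay above all controls, at 11.8, 5.30 and 6.09 against 5.28, 2.72 and 3.27.

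Genes of energy metabolism had no member past the test in either fit. Of 21 hypoxia and glycolysis genes, 6 lay above and 1 below all controls, and the median of 0.00 became -0.21 after median-of-ratios rescaling. Hk1, a hexokinase, had 94.6, 74.7 and 48.1 against 25.4, 35.4 and 27.8 (adjusted p 0.0915). Of 20 nuclear genes of oxidative phosphorylation, 6 lay above and 1 below, and the median of 0.10 became -0.11. These medians were 0.037 and 0.078 without lasered library 1. The 13 mitochondrially encoded genes lay the other way, with 7 below and 0 above all controls and a median of -0.24, which was -0.46 with median-of-ratios rescaling and -0.02 on quantile-normalized values, and -0.20 without lasered library 1. The most abundant of them, mt-Co3, a subunit of cytochrome oxidase, had 27517, 32872 and 37309 against 51413, 54763 and 45098 (adjusted p 0.0977). Of 22 ribosomal protein genes, 15 lay above all controls (median 0.41, 0.19 after median-of-ratios rescaling and 0.29 without lasered library 1), and of 17 clock genes 5 did (median 0.05, -0.13 after that rescaling and 0.12 without lasered library 1).

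On the lower side, no named protein-coding gene passed over all libraries. The 6 falls with the smallest p among genes with a given name and a mean of at least 5 were Zcchc3, Csrp3, mt-Co3, Acadvl, Mir7-1 and mt-Co1, all with adjusted p of 0.0977 to 0.114 and none past the threshold. Csrp3, a LIM protein known from muscle, had 0.225, 3.24 and 2.69 against 10.2, 8.02 and 7.45, and passed without lasered library 1 (adjusted p 0.0300). Acadvl, an enzyme of mitochondrial fatty acid oxidation, had 73.5, 108 and 111 against 156, 146 and 159. Without lasered library 1, Dleu7 passed as well, at 0.263, 11.4 and 6.78 against 22.4, 23.8 and 26.6, as did Mir3091, with 7, 0 and 0 reads against 4, 2 and 3, and 9 of the 14 falls had at most 10 reads in any library.

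Markers of tissues next to the neural retina varied between libraries. Among 20 genes of the visual cycle and pigment epithelium, 18 were tested, 1 lay above and 0 below all controls, and the median was -0.60, with -1.06, -0.94 and 0.27 in lasered libraries 1, 2 and 3, and -0.18 without lasered library 1. Rpe65, the isomerase of the visual cycle made by the pigment epithelium, had 2.11, 19.3 and 57.9 against 27.6, 43.3 and 46.4, so lasered library 3 was above and the other 2 below all controls. Their summed signal was 244, 394 and 974 in lasered and 499 to 784 in control libraries. Lens genes were high in lasered library 2, where Cryaa had 2297 reads against 11 and 2 in the other lasered libraries and 1 to 10 in controls. The summed lens signal was 29.2, 583 and 11.1 against 4.65 to 11.03. Of 12 tested lens genes 2 lay above all controls and 0 passed. Corneal and epidermal markers (0 tested) were low but, like the lens genes, highest in lasered library 2. Their summed signal was 9.27 there and 0.963 to 2.41 in the other libraries. The 15 muscle markers (4 tested, 1 above all controls, summed signal 24.5 to 44.0) were low in all libraries. Of 5 sex-linked genes, 4 were tested, 0 passed and Uty lay below all controls, at 7.11, 6.35 and 7.10 against 9.02, 7.20 and 9.36 (adjusted p 0.321), with Xist at 0 to 3 reads in every library. The part of these tissues in the results was not tested.

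**Figure D4:**
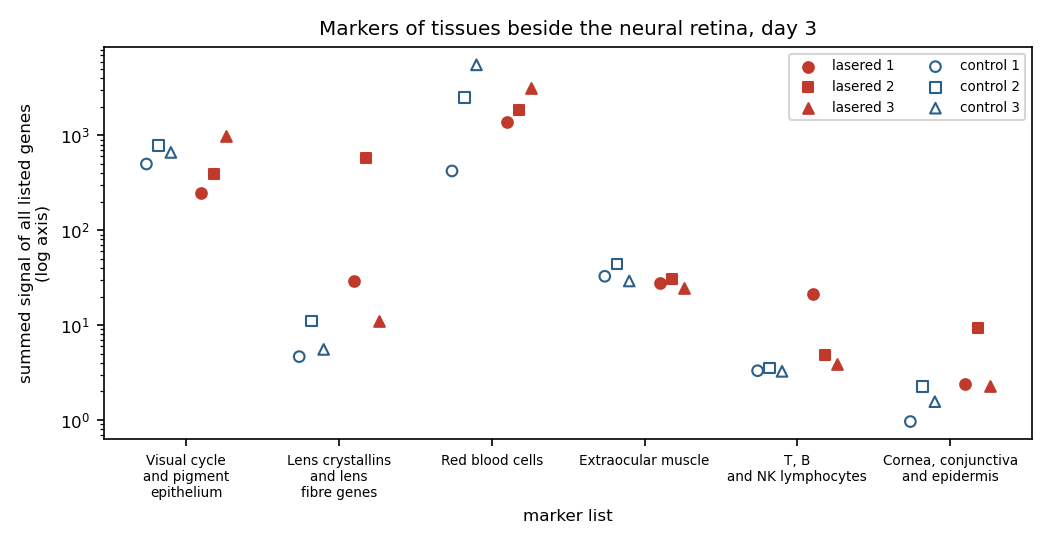
Summed deposited signal of 6 marker lists for tissues and cells beside the neural retina, on a log axis, for each library. Filled red symbols are lasered and open blue symbols control libraries, with the symbol shape giving the replicate. The lens list is at 583 in lasered library 2 and at most 29.2 elsewhere, the pigment epithelium list is lowest in lasered library 1 at 244, and red blood cell genes vary within both groups.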

How the data were processed

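Poly(A) RNA of lasered and control mouse retina on day 3 was sequenced from directional libraries, 3 per group, per the labels' protocols. The deposited signal per gene is named as TPM by the authors, but the column sums of 961549 to 1045986 are not those of TPM. Per the submitters' processing notes, STAR 2.7.0, edgeR 3.28.0 and mm10 were used, in no stated role. How reads were counted, on which annotation and with what strand setting is not given in the sources used. Multiplying the deposited signal by exon length in GENCODE M21 (53681 of 54367 genes with the same start and end) gave reads: of 73881 values under 20 reads, 99.8% were whole within 0.05. A factor of 0.955 to 1.04 that cycles over 6 row positions had to be taken out first, and it shifted the groups by at most 0.052 on the log2 scale. Floors in reads cover counting error only.

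Genes with a mean of at least 1 were fitted with limma 3.58.1 in R 4.3.3 (trended prior variance, 2-sided) on log2(signal + 1), which understates the change of low genes, with Benjamini-Hochberg adjustment over 16786 genes and a threshold of 0.05. The unit assumed when the test was written down was TPM, and the test was kept for the signal. Fold changes are ratios of group means. The fit was tested on simulated data. Alternatives were a replicate block, other pseudocounts, filters and scalings, library weights, a prior without a trend and each library left out. Added after seeing the data were undoing the cyclic factor, voom on recovered reads, genes with at least 200 exon bases and protein-coding genes only.

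The comparison and the 41 lists (793 genes, 581 of them tested) were chosen with earlier results of these data known. Named are all genes past the threshold, up to 4 list members with the smallest p, 15 fixed genes, the 10 largest rises and falls without lasered library 1 and the 6 falls with the smallest p, the last 2 with a given name and a mean of at least 5. Some genes are not reported here. Other genes were named after their values were seen, namely Ednrb, S100a6, S100a11, S1pr3, Agtpbp1, Ifit3, Tnfaip3, Hcls1, Hes5, the cone genes Opn1sw, Arr3 and Opn1mw, Cd3e, Cryaa, Sprr1a, and genes given only as background or as members that passed. Where genes shared a symbol (183 genes), the one with the longest exons was taken. Tables were handled in pandas 2.3.3 and NumPy 2.4.6 (Python 3.11.15), and figures drawn with matplotlib 3.10.9.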

Additional observations from a re-analysis of the deposited data

How the results depend on the processing

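The direction of the 24 rises and 1 fall held in the alternatives that could test them, while the number past the threshold did not. Rises and falls were 0 and 0 with a pseudocount of 5, without a filter on low values and without any 1 of the controls. They were 20 and 0 with a pseudocount of 0.1, 23 and 0 with a mean of at least 5, 13 and 0 with median-of-ratios rescaling, 12 and 0 on quantile-normalized values and 16 and 1 with a prior without a trend. Weights that gave lasered library 1 the least influence (0.328) raised them to 363 and 6. Leaving out 1 library at a time gave 0 to 301 rises and 0 to 14 falls. Of the alternatives added after seeing the data, undoing the cyclic factor gave 30 and 1, voom 3 and 0, genes with at least 200 exon bases 24 and 0, and protein-coding genes only 20 and 0. All 25 genes remained past the threshold with library weights, 24 with the cyclic factor undone, 13 with median-of-ratios rescaling, 12 on quantile-normalized values and 3 with voom. Beyond having fewer samples or other genes to adjust over, the cause was not tested.

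With a replicate block in the fit, 0 genes rose and 0 fell (smallest adjusted p 0.0574, and 3491 genes with an unadjusted p under 0.05). Deviations from the group means correlated by 0.041, 0.016 and 0.077 between libraries of equal number, each higher than with any other number. The labels do not tie these libraries to 1 mouse, so the block was not used for the main test.

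Genes that turned direction were all short of the threshold. Sag went to -0.11 and Eif2s3y to -0.16 with median-of-ratios rescaling, and to -0.067 and -0.21 with voom. Quantile normalization took Alas2 to -0.037, mt-Atp8 to 0.055 and Eif2s3y to -0.18, and undoing the cyclic factor took Kdm5d to 0.0295. Over the fits that left out 1 library, Alas2 ranged from -0.57 to 0.83, Hbb-bs from -0.82 to 1.07, Hbb-bt from -0.84 to 1.17, Acta1 from -0.40 to 0.089, Acta2 from -0.19 to 1.41, Kdm5d from -0.13 to 0.080 and Eif2s3y from -0.023 to 0.10.

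Depth limits the low genes. A signal of 0.446 to 0.605 in 1000 bases of exons is 3 reads, and 5 of the 25 genes past the threshold had at most 3 reads in any library.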

Other observations

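Several secreted and granule genes were far higher in lasered library 1 than in any other library. They were chosen after their values were seen and are given as values. Pf4, a chemokine of platelet granules, had 376 in lasered library 1, 2.46 and 4.41 in lasered libraries 2 and 3, and 0.286 to 0.628 in controls. S100a8 and S100a9, the calcium-binding pair of neutrophils and monocytes, had 476 and 524 in lasered library 1, 1.29 and 1.44 in lasered library 2, and 23.3 and 24.3 in lasered library 3. Lasered library 3 was thus between the other lasered libraries for this pair. Cxcl1, a chemokine for neutrophils, had 61.2, 0.236 and 1.04, Il1b, the inflammatory cytokine, had 58.7, 0.162 and 1.85, and Mmp3, a matrix protease, had 90.1, 0.248 and 0.204, all listed at 0 in every control. Arg1, an arginine-degrading enzyme of some macrophages, had 114, 1.73 and 2.41 against 1.15 to 1.60 in controls. Lcn2, an iron-binding acute-phase protein, had 3906, 44.5 and 182 against 7.67 to 9.19, and Timp1, the protease inhibitor, had 1075, 15.3 and 16.9 against 0.232 to 1.19. Without lasered library 1, Lcn2, Timp1 and Pf4 passed the test (limma, adjusted p 0.0365, 0.00513 and 0.0333).

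Other genes, also chosen after their values were seen, were far lower in lasered library 1 than in lasered libraries 2 and 3. Glb1l3 had 2.08 there, 35.3 and 36.8 in lasered libraries 2 and 3, and 51.9 to 71.5 in controls. Rabgef1 had 27.6, 249.6 and 210.3 against 372 to 462, and Sh2d1a, an adaptor known from lymphocytes, had 5.74, 40.5 and 39.7 against 52.1 to 67.5. Glb1l3, Rabgef1 and Sh2d1a were below all controls in lasered libraries 2 and 3 as well. Serpine3 had 0, 19.7 and 114 against 3.46 to 14.0, so its lasered libraries spread to both sides of the controls.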
